A study of Saccharomyces cerevisiae with 10 samples.

Results

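The comparison described here is that of the budding yeast strain labelled ptc1, a mutant in the gene of the type 2C protein phosphatase Ptc1, with its wild type (wt). It was chosen as the pair of two-colour arrays titled for ptc1 against wt, and its members are the 4612 of 6212 listed open reading frames that gave a value on both arrays. The series holds 10 arrays of 5 mutants, ptc1, ptc2, ptc3, ptc4 and ptc5, each hybridised against wt RNA on 2 arrays with the dyes exchanged. On array 1 of each mutant the mutant cDNA carried Cy5 and the wt cDNA Cy3, and on array 2 the dyes were the other way round. All strains, mutants and wt alike, were grown in the rich medium YPD at 28 °C and harvested in log phase at an absorbance between 0.6 and 0.8, with no other treatment. The labels give neither the strain background, the mating type nor the construction of the mutants. The design text counts 6 RNA samples, so the 2 ptc1 arrays were read as repeat measurements of 1 ptc1 RNA and 1 wt RNA, and no test of ptc1 against wt can be made. Values are log ratios of ptc1 over wt, read as log2. The base is not given, and under natural logarithms every fold would be larger. Values from 2 arrays are given as array 1 and array 2, and an SD is that of the 2 arrays, which measures dye and hybridisation and not the spread between cultures.

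Type 2C phosphatases remove phosphate from serine and threonine residues and need magnesium or manganese. Ptc1 is known for holding the high-osmolarity (HOG) pathway low through its MAP kinase Hog1, bound by way of the adaptor Nbp2, and loss of Ptc1 has been tied to the cell wall integrity pathway, to calcium and lithium sensitivity and to the inheritance of organelles by the bud. In the cell wall integrity pathway, membrane sensors of the Wsc and Mid2 kinds act through exchange factors on the GTPase Rho1, which activates the kinase Pkc1 and a MAP kinase cascade ending in Slt2. Slt2 phosphorylates the transcription factor Rlm1, whose targets are mostly wall proteins and wall-building enzymes, and tyrosine phosphatases such as Ptp2 switch Slt2 off again.

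The PTC1 transcript itself had log2 ratios of -1.97 and -1.86 in ptc1, a mean of -1.91 ± 0.081 (SD, 2 arrays), or 3.77-fold lower than in wt. On the 8 arrays of the other mutants its ratio lay between -0.45 and 0.42, so both ptc1 arrays stood below all of those. The other measured family members were close to wt on both arrays. PTC2 had 0.023 and 0.16, PTC3 had -0.010 and -0.041, and PTC5 had -0.16 and 0.11. PTC6 had 0.10 and -0.028, and PTC7 had 0.066 and -0.21. None of these 5 was 1.5-fold from wt on either array, and PTC4 had a value on array 1 alone, -0.34. Of the genes next to PTC1, RPT2 (a proteasome ATPase) had 0.045 and MED2 (a Mediator subunit) had 0.089, each on array 1 alone, and ATP16 (an ATP synthase subunit) had 0.28 and -0.053. The neighbour YDL007C-A gave no value.

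The 2 arrays held 4802 and 4721 values, and the median log2 ratio over the 4612 genes was -0.029 on array 1 and -0.015 on array 2. Across genes, which are not independent replicates, the arrays correlated with a Pearson r of 0.506 and a Spearman rho of 0.335. A mean of at least 1.5-fold in either direction was reached by 83 genes. The dye difference, (array 1 minus array 2)/2, which the average removes, reached that size for 3. Across 3606 genes it correlated with the same quantity averaged over the other 4 mutants (r = 0.626), so part of the disagreement between the arrays was shared by all mutants. Median ratios of the 16 chromosomes lay between -0.072 and 0.043. Marker genes of other yeast cell states gave few pairs of values: a-cell genes 4 of 7 (median -0.18), alpha-cell genes 2 of 4 (median -0.13), and meiosis and sporulation genes 3 of 12 (median -0.10), with none past 1.5-fold on both arrays. A ratio does not show a level, so the mating type of the strains could not be read from them.

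**Figure D1:**
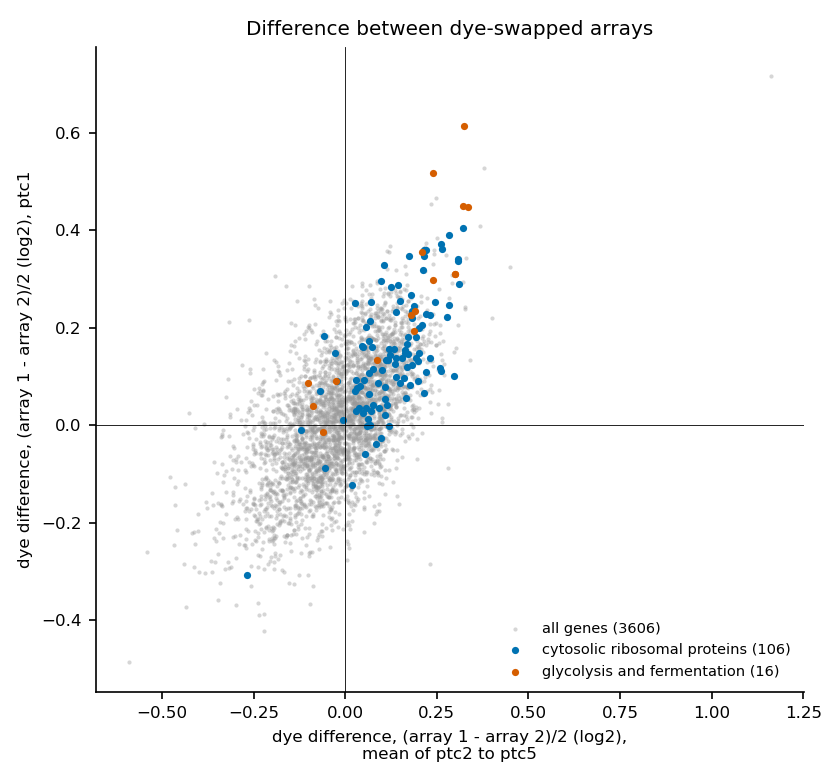
Dye difference, (array 1 minus array 2)/2 in log2, for each of 3606 genes, in ptc1 on the vertical axis and averaged over ptc2 to ptc5 on the horizontal axis. Most coloured points, the ribosomal protein genes (106) and the genes of glycolysis and fermentation (16), lie in the upper right, where array 1 exceeds array 2 in ptc1 and in the other mutants alike.

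Genes were taken by size. A gene met the 1.5-fold rule when each of its 2 values was 1.5-fold or more from wt on the same side. It met the 2-fold rule when, besides, its mean was 2-fold or more from wt. The 2-fold rule was met by 22 genes higher in ptc1 than in wt (0.477% of 4612) and by 1 lower (0.0217%), PTC1 itself. The 1.5-fold rule was met by 54 genes higher (1.17%) and 5 lower (0.108%). A short gene list without such a gene is near these shares, so its lack of one is no result about that list. List members counted above or below 0 stand against all 4612 genes, 43.1% of them above 0 and 2619 of them below. On array 2 alone 112 genes were at least 1.5-fold higher and 51 lower, and on array 1 alone 88 were higher and 12 lower. Just inside the 2-fold rule lay BAG7 with a mean of 1.002 and just outside it YJL107C with 0.97. Differences in ptc1 beyond these sizes were thus mostly towards higher values. In RNA from whole cultures, fewer cells with a transcript and less of it per cell cannot be told apart.

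**Figure D2:**
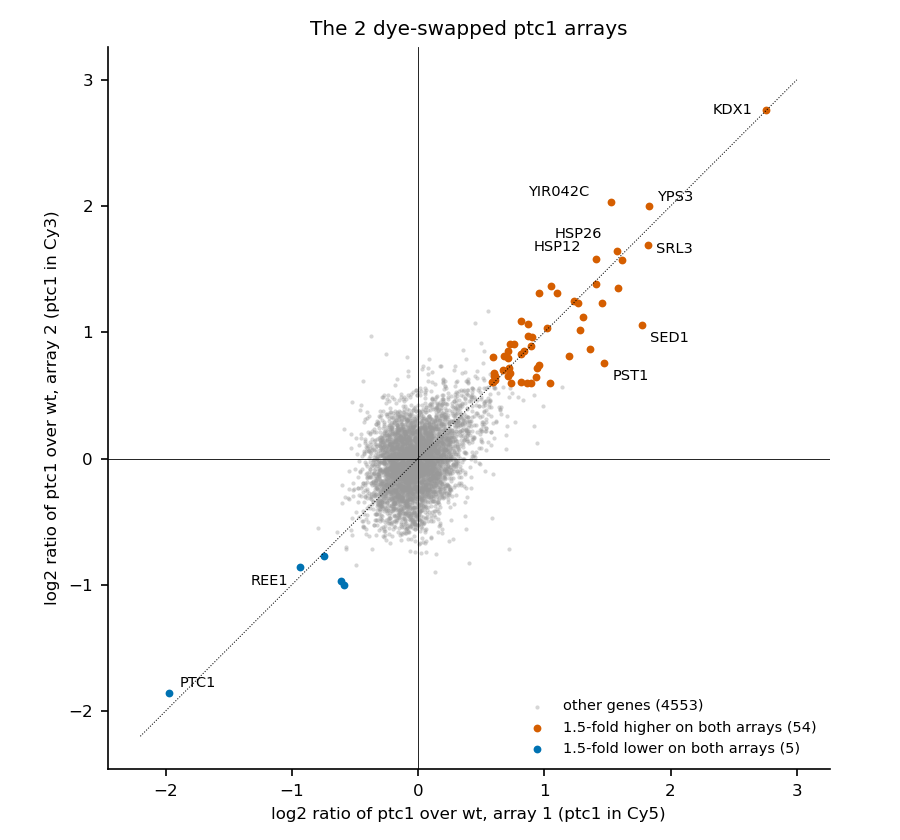
Log2 ratio of ptc1 over wt on array 1 (horizontal) and array 2 (vertical) for 4612 genes. Most of the 54 genes in orange and the 5 in blue lie near the dotted line of equal values, while SED1 and PST1 lie off it. They run from KDX1 at the top right (2.76 on both arrays) to PTC1 at the bottom left. The 1.5-fold rule asks for both arrays on the same side, so their agreement was partly set by the rule. The 4553 other genes form a round cloud about 0 (r = 0.361 among them).

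The leading gene was KDX1, which codes for a Slt2-related pseudokinase that is itself an Rlm1 target and activator. KDX1 had log2 ratios of 2.76 and 2.76, a mean 6.78-fold above wt. It was followed by YPS3, coding for a yapsin, an aspartyl protease held in the plasma membrane by a lipid anchor. YPS3 had 1.83 and 2.00, 3.77-fold above wt. Both genes belong to the output of the cell wall integrity pathway, which is described next in the order of the signal.

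At the top of the pathway the sensors differed among themselves. MTL1, a Mid2-like sensor, had 0.86 and 0.60 in ptc1, and WSC4 had -0.61 and -0.97, so that both met the 1.5-fold rule in opposite directions. WSC2 had 0.27 and 0.17. SLG1, the main sensor also called WSC1, had 0.078 and -0.11, and MID2 had -0.001 and -0.45. WSC4 was also below wt on all 8 arrays of the other mutants, between -0.87 and -0.049, and MTL1 had a value on 2 of those 8.

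Among the GTPases and their regulators, BAG7, which codes for a GTPase-activating protein of Rho1, had 1.19 and 0.81 and was the member of this tier that met a size rule. RHO1 had 0.19 and 0.16, and its exchange factor ROM2 had 0.17 and 0.10. RHO2 had -0.11 and 0.20, and BEM2, another GTPase-activating protein, had 0.13 and -0.13. These last 2 had opposite signs on the 2 arrays. ROM1, TUS1, SAC7, PKC1 and BCK1 lacked a pair of values.

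In the kinase tier the MAP kinase gene differed from the genes of the kinases above it. SLT2 had 1.10 and 1.31, 2.31-fold above wt, whereas MKK1 had -0.19 and -0.34 and MKK2 had -0.042 and -0.20. Of the transcription factors, RLM1 had 0.73 and 0.68 and met the 1.5-fold rule. SWI4 had -0.15 and 0.37, and SWI6 had -0.19 and 0.13, both with opposite signs on the arrays. In all, 4 of 12 measured genes of the cascade met the 1.5-fold rule above wt, KDX1, SLT2, BAG7 and RLM1, against 1.17% of all 4612 genes. The median of the 12 was 0.12. KDX1 had a value on 1 of the 8 arrays of the other mutants and BAG7 on 2. Whether these genes passed the spot filter through ptc1 alone was not tested.

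The phosphatases that act on Slt2 were also measured. PTP2, an Rlm1 target coding for a tyrosine phosphatase of Slt2 and Hog1, had 0.76 and 0.91. PTP3, for the related enzyme, had 0.50 and 0.13, and MSG5, for a dual-specificity phosphatase, had -0.034 and -0.001. PTP2 was thus the member of the 3 that met the 1.5-fold rule, and SDP1 lacked a pair of values.

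The list of Slt2 and Rlm1 targets, assembled from general knowledge but with earlier results of these data known, lay above wt throughout. Its counts are therefore a description and not independent support. Of its 24 genes 20 gave a pair of values, and each of the 20 had a positive mean, 13 met the 1.5-fold rule and 9 the 2-fold rule, and the median was 0.91 (0.99 on array 1 and 0.88 on array 2). Over all 4612 genes 43.1% had a positive mean, 1.17% met the 1.5-fold rule above wt and 0.477% the 2-fold rule, and the median was -0.028. KDX1, SLT2 and PTP2 are on both this list and those above. SED1, coding for an abundant lipid-anchored wall protein, had 1.77 and 1.06, and PST1, for another wall protein, had 1.47 and 0.75. These were the list members with the widest gaps between arrays in the 2-fold rule, with an SD of 0.50 and 0.51. PRM5, a membrane protein gene named for its pheromone response, had 1.45 and 1.23. CRH1, for an enzyme that joins chitin to glucan, had 1.27 and 1.23, and NCW2, for a wall protein, had 1.31 and 1.12.

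PIR3, for a wall protein of the Pir family with internal repeats, had 1.02 and 1.03, nearly the same on both arrays. The other Pir genes were lower: HSP150 had 0.96 and 0.74, PIR1 had 0.74 and 0.52, and CIS3 had 0.92 and 0.26. YJL107C had 0.87 and 1.06, NFG1 (YLR042C) had 1.14 and 0.57, and CCW14, for an inner wall protein, had 0.90 and 0.60. DFG5, for an enzyme thought to anchor wall proteins, had 0.52 and 0.85. Of the Pir genes PIR3 and HSP150 met the 1.5-fold rule, and NFG1, DFG5, PIR1 and CIS3 passed 1.5-fold on 1 array each. The lowest members were GSC2, for a stress-induced glucan synthase, with 0.53 and 0.62, GFA1, for the first enzyme of chitin precursor synthesis, with 0.37 and 0.44, and CWP1, for a wall mannoprotein, with 0.37 and 0.053. BGL2, FKS1, PRM10 and CHS3 lacked a pair of values.

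**Figure D3:**
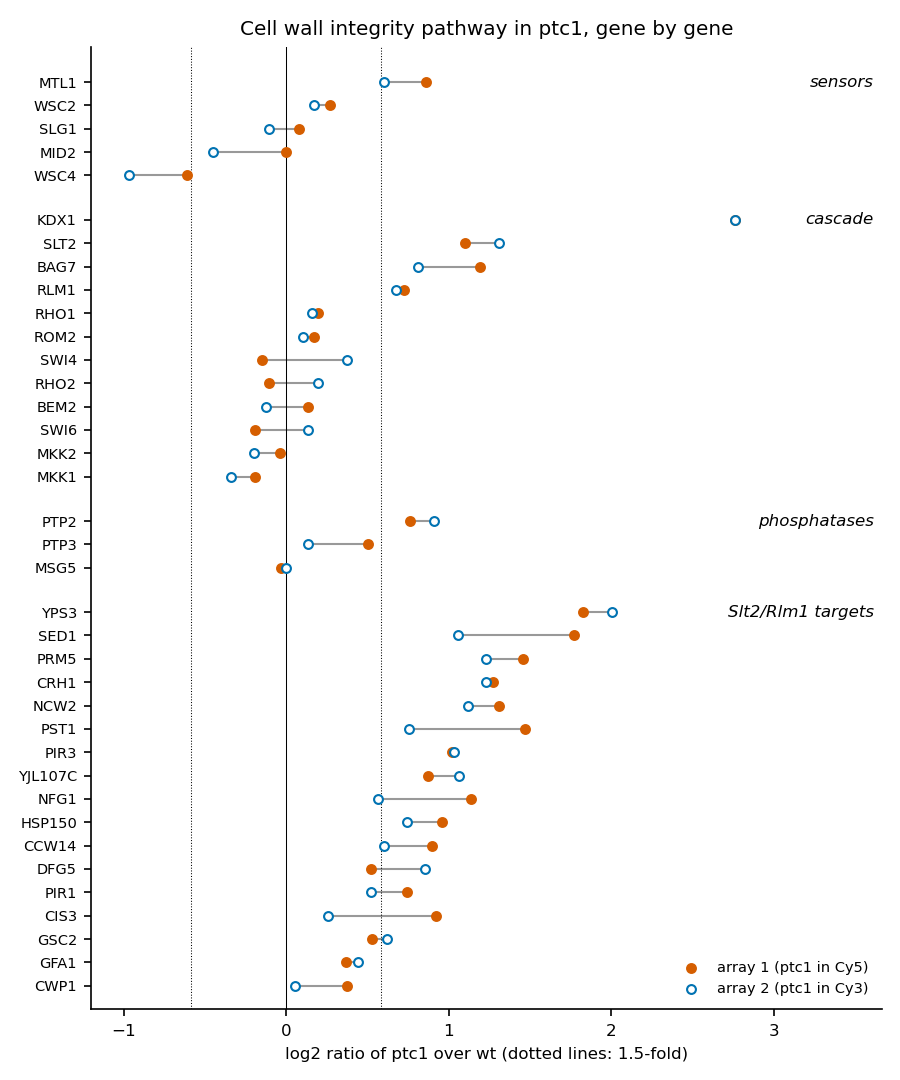
Log2 ratio of ptc1 over wt for measured genes of the cell wall integrity pathway, by tier from sensors to targets, with a filled circle for array 1 and an open circle for array 2; a gene on several lists is drawn once, and dotted lines mark 1.5-fold. Sensors lie on both sides of 0, and MKK1 and MKK2 lie left of it. The targets drawn in their own tier lie right of 0 on both arrays, from CWP1 near 0 to YPS3 at 1.83 and 2.00. KDX1 (2.76) and SLT2 are drawn with the cascade and PTP2 with the phosphatases.

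Wall proteins and yapsins, a list that shares 9 measured genes with the targets, had a positive mean in 14 of 15 measured members. Their median was 0.59. Over all 4612 genes 43.1% had a positive mean and 1.17% met the 1.5-fold rule above wt. The 6 members that met the 1.5-fold rule, YPS3, SED1, PST1, PIR3, HSP150 and CCW14, were all among the shared genes. The members outside the target list were nearer to wt. YPS1, for the main yapsin, had 0.46 and 0.42, and YPS7 had 0.45 and 0.17, while MKC7, for another yapsin, had -0.10 and -0.14. SPI1, for a wall protein of stressed cells, had 0.52 and 0.29, and TIP1, for a mannoprotein, had 0.20 and -0.15. Within the yapsins, then, YPS3 met a size rule and YPS1, YPS7 and MKC7 did not. CCW12, for a major wall mannoprotein, had 0.58 and -0.47, among the 6 genes with the widest gaps between the arrays. The dye difference of CCW12 was 0.53 in ptc1 and averaged 0.38 in the other 4 mutants.

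The enzymes that make and remodel glucan and chitin were above 0 in 18 of 22 measured members, with a median of 0.24. Of these enzymes 2, CRH1 and EXG1, met the 1.5-fold rule. Among all 4612 genes 43.1% had a positive mean and 1.17% met that rule above wt. EXG1, for the main exo-glucanase, had 0.71 and 0.85. Of the genes for the 1,6-linked glucan branch, KRE6 had 0.54 and 0.56, its relative SKN1 had 0.35 and 0.68, KRE5 had 0.18 and 0.39, and KRE1 had 0.060 and -0.035. Of the wall-elongating and glucanase-like enzymes, SCW10 had 0.66 and 0.41 and GAS5 had 0.52 and 0.45, but GAS1 had 0.32 and 0.072 and GAS3 had -0.16 and -0.29. For chitin, CHS7, needed to export a chitin synthase, had 0.47 and 0.34, CHS2, for the septum's synthase, had 0.20 and 0.23, and CHS5 and CHS6 had means of -0.11 and 0.038. The lowest member was CRR1, for a protein of the spore wall, with -0.80 and -0.55. KTR2, for a mannosyltransferase that was on no list, had 0.94 and 0.72, and TIR1, for a mannoprotein of cold and anaerobic cells, had 0.82 and 0.61.

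Calcium signalling genes were examined because calcineurin, the calcium-activated phosphatase, acts beside the cell wall integrity pathway on targets such as GSC2. None of 14 measured members met the 1.5-fold rule, which is near the 1.17% of all genes that met it above wt. Of the 14, 11 had a positive mean, against 43.1% of all 4612 genes, and the median was 0.20. The highest were GSC2 (mean 0.57) and KRE6 (mean 0.55), which are also on the list of glucan and chitin enzymes. CMK2, for a calmodulin-dependent kinase, had 0.43 and 0.50. PMC1, for the calcium pump of the vacuole, had 0.39 and 0.33, CMP2, for a catalytic subunit of calcineurin, had 0.38 and 0.30, and RCN2 had 0.25 and 0.19. These 4 lay above wt on both arrays by less than 1.5-fold, and CNB1, for the regulatory subunit, had -0.13 and 0. Genes of the vacuolar proton pump lay the other way, below 0 in 15 of 17 members, against 2619 of all 4612 genes. The median of the 17 was -0.098, and VMA3 was lowest with -0.14 and -0.52.

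For the HOG pathway the data show no gene past 1.5-fold on both arrays. Over all 4612 genes 1.17% were past it above wt and 0.108% below. For so few genes, none is near these shares and is no result about the pathway. The 17 measured components had a median of 0.0095, with 9 above and 8 below 0. MSB2, for a mucin-like sensor, had 0.70 and 0.25, and SMP1, for a transcription factor downstream of Hog1, had 0.34 and 0.32. SKO1, for another such factor, had 0.37 and 0.23. NBP2, for the adaptor of Ptc1, had -0.27 and 0.12, and PBS2, for the MAP kinase kinase, had -0.28 and 0.030. MSN1 had -0.021 and -0.56 and CDC42 had -0.29 and -0.29. HOT1 had -0.061 and -0.32, SHO1 had 0.28 and 0.001, and STE20, STE50, RCK2, YPD1, STE11, OPY2, SSK2 and SSK1 had means between -0.10 and 0.12. HOG1, SLN1, SSK22 and HKR1 lacked a pair of values. The genes that hyperosmotic stress induces were likewise short of the size rules: 8 of 12 were above 0, the median was 0.13, and the highest were ALD3 (0.20 and 0.50) and HOR7 (0.58 and 0.11). GPD1, for the glycerol enzyme that this pathway controls, had 0.21 and -0.27, with opposite signs on the arrays. STL1, ENA1, GRE1 and SIP18 lacked a pair of values.

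Stress genes of the general environmental response contained 2 genes of the 2-fold rule, HSP26 and HSP12, and 20 measured genes short of the size rules. HSP26, for a small heat shock chaperone, had 1.58 and 1.65, 3.06-fold above wt, and HSP12, for a small membrane-binding stress protein, had 1.41 and 1.58. Of the 22 measured members 17 had a positive mean and the median was 0.13. Over all 4612 genes 43.1% had a positive mean and 0.477% met the 2-fold rule above wt. MSC1 had 0.42 and 0.46 and GLC3, for the glycogen branching enzyme, had 0.21 and 0.57. CTT1, for the cytosolic catalase, had -0.14 and -0.085, HSP104 had -0.24 and -0.075, and GSY1, for glycogen synthase, had -0.47 and -0.23. DDR48, named for induction by DNA damage and outside this list, had 0.67 and 0.71. Chaperone genes of the heat shock factor Hsf1 were below 0 in 15 of 16 members, against 2619 of all 4612 genes. The median of the 16 was -0.14. SSA3 was the exception with 0.29 and 0.29, BTN2 had -0.43 and -0.35, and SSA1 had -0.19 and -0.49. Genes for folding in the endoplasmic reticulum had a median of 0.089, with medians of opposite sign on the 2 arrays (0.16 and -0.018).

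Of the further genes of the 2-fold rule, SRL3 and AFR1 came from lists whose medians were near wt. SRL3, coding for a paralog of the G1/S repressor Whi5, had 1.82 and 1.69, 3.38-fold above wt. The median of the 16 G1/S genes was 0.0052, and the next highest, the cyclin gene PCL2, had 0.29 and 0.49. AFR1, for a septin-linked protein that shapes the mating projection, had 1.41 and 1.38, while 13 of 20 measured genes of the mating list lay below 0 and their median was -0.10. STE7, for the mating MAP kinase kinase, had 0.54 and 0.29, and FUS2, for cell fusion, had -0.45 and -0.23. SRL3 and AFR1 therefore stood alone in their lists at this size. PRM5, named for its pheromone response and also of the 2-fold rule, was placed with the Slt2/Rlm1 targets and not in the mating list. CRG1, for a methyltransferase tied to lipid homeostasis, had 1.62 and 1.57. FLC2, for a membrane protein linked to flavin and calcium transport, had 1.24 and 1.25. CRG1 and FLC2 were on none of the lists.

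Open reading frames without a gene name made up part of the higher group. YIR042C had 1.53 and 2.03, YMR103C had 1.05 and 1.36, and YPL088W had 0.96 and 1.31. YMR173W-a had 0.81 and 0.83 and its namesake in the systematic order, DDR48 (YMR173W), stands above with similar values. YNL057W had 0.87 and 0.97 beside YNL058C with 0.59 and 0.61. Array spots for such adjoining frames may pick up the same transcripts, so these 2 pairs may not be 4 separate measurements. YHR095W, YER188W, YGR269W and YHL041W had means between 0.60 and 0.64, and the last of these met the rule at its edge on array 1.

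Single genes of metabolism and transport were also among the 54. CIT2, for the citrate synthase of peroxisomes and the classic gene of the retrograde response from mitochondria to nucleus, had 1.58 and 1.35, 2.76-fold above wt. PYC1, for pyruvate carboxylase, had 0.72 and 0.65, and both were members of the retrograde list, which was above 0 in 8 of 10 members with a median of 0.16. CIT1 had 0.14 and 0.41 and DLD3 had 0.20 and 0.26. MLS1, for the malate synthase of the glyoxylate cycle, had 0.89 and 0.89, but it also ranged from -1.40 to 2.14 on the arrays of the other mutants.

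Amino acid and peptide uptake was represented by GAP1, for the general amino acid permease, with 1.28 and 1.02, by AGP1, for a broad amino acid permease, with 0.71 and 0.80, and by PTR2, for the peptide transporter, with 0.74 and 0.60. GAP1 and AGP1 were the members of the nitrogen catabolite list that met the 1.5-fold rule. CAR2, for an arginine-degrading enzyme, had 0.79 and 0.49, and CAR1, for arginase, had 0.53 and 0.42. The list was above 0 in 9 of 12 measured members with a median of 0.23, while 11 of its 23 members lacked a pair of values. DAL4 (-0.29 and -0.031), UGA4 (0.018 and -0.11) and PUT2 (0.058 and -0.063) were near or below wt. ARO9, for an aromatic aminotransferase, had 0.61 and 0.65, and ATG8, for the ubiquitin-like protein of autophagy, had 0.72 and 0.72. Amino acid biosynthesis genes had a median of 0.049 over 28 members, none past 1.5-fold on both arrays.

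Vitamin, metal and phospholipid genes were scattered singly. MCH5, for the riboflavin transporter, had 1.36 and 0.87, and MCH4, for a related protein, had 1.05 and 0.60. SNZ1, for vitamin B6 synthesis in starving cells, had 0.91 and 0.96. YKE4, for a zinc transporter, had 0.84 and 0.85 against a zinc list median of -0.060, and PCA1, for a cadmium exporter, had 0.81 and 1.09. GDE1, for a glycerophosphocholine phosphodiesterase, had 0.60 and 0.81, and MET3, for the first enzyme of sulphate assimilation, had 0.61 and 0.64. RTS3 had 0.73 and 0.91, TOH1 had 0.94 and 0.64, and MSB3, for a GTPase-activating protein of Rab GTPases, had 0.68 and 0.81. Of the 54 higher genes, 28 were on none of the lists.

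On the lower side, REE1 and YJL218W, which neighbour each other, followed PTC1. REE1, named for the regulation of enolase, had -0.93 and -0.86, 1.86-fold lower than wt, and YJL218W had -0.59 and -1.0. HSP30, for a plasma membrane heat shock protein that restrains the proton pump, had -0.75 and -0.77, and WSC4 completed the 5. HSP30 was below wt in 3 of the other mutants too, with means of -1.38 in ptc2, -1.33 in ptc4 and -1.73 in ptc5, against 0.019 in ptc3. With each array centred on its median, 3 genes met the lower rule.

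Several lists lay below 0 by less than 1.5-fold. Histone genes were below 0 in 10 of 10 members, with a median of -0.33 (-0.28 on array 1 and -0.33 on array 2), from HTA2 with -0.43 and -0.49 to HTZ1 with 0.036 and -0.10. Ribosomal protein genes were below 0 in 118 of 120 members, with a median of -0.31, and 99 of the 120 were below 0 on both arrays, against 1576 of all 4612 genes. RPL9A had -0.36 and -0.72, RPL42A had -0.60 and -0.36, RPS18A had -0.47 and -0.46, and RPL25 had -0.23 and -0.67. The size of that shift depended on the array, with medians of -0.16 on array 1 and -0.45 on array 2, and the median dye difference of the list was 0.13 in ptc1 and 0.14 in the other 4 mutants. Many histone and ribosomal protein genes come as near-identical pairs whose spots may share signal, so the members are not separate measurements.

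Genes of glycolysis and fermentation had opposite signs on the arrays, with medians of 0.069 and -0.50, and a median of -0.21 for the averaged values. PDC1, for pyruvate decarboxylase, had 0.40 and -0.83, and TDH2, for glyceraldehyde-phosphate dehydrogenase, had 0.14 and -0.90. The median dye difference of this list was 0.30 in ptc1 and 0.20 in the other 4 mutants, so no direction against wt is given for it. Iron uptake genes were below 0 in 10 of 14 members, against 2619 of all 4612 genes, with a median of -0.22. FRE7, for a metal reductase, had -0.49 and -0.84, and FRE1, for another, had -0.56 and -0.31. FET3, for the iron oxidase, had -0.52 and -0.61, and SIT1, for a siderophore transporter, had -0.39 and -0.61. ARN1, for another siderophore transporter, had 0.23 and 0.079, on the other side of 0.

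Other lists had medians nearer to that of all genes. Ribosome biogenesis genes had -0.080 over 25 members, respiratory chain genes 0.072 over 32, and phosphate genes 0.065 over 12, where SPL2, an inhibitor of low-affinity phosphate uptake, had 0.43 and 0.55. Hexose transporters and their regulators had a median of 0.13 over 8, with 0.84 and 0.46 for HXT6, a near-identical copy of HXT7, and 0.36 and 0.86 for HXT5. For organelle inheritance, MMR1, for the mitochondrial adaptor of the bud, had 0.34 and 0.18 and VAC17, for the vacuolar adaptor of myosin, had 0.067 and 0.072. SHE2, SHE3, VAC8 and INP2 had means between -0.12 and 0.043.

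**Figure D4:**
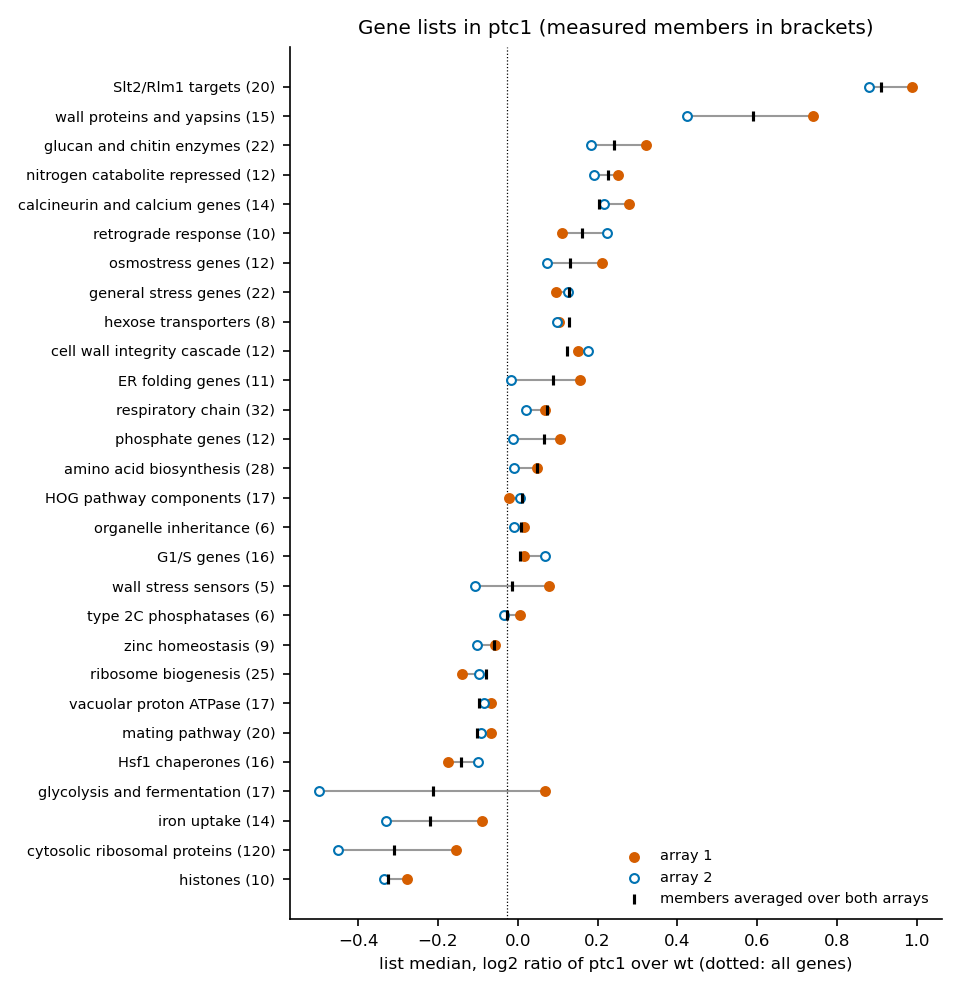
Median log2 ratio of ptc1 over wt for 28 lists with at least 5 measured members (their number in brackets), with a filled circle for array 1, an open circle for array 2 and a bar for members averaged over both arrays; the dotted line is the median of all genes. Slt2/Rlm1 targets (0.91) and wall proteins and yapsins (0.59) lie to the right of all other lists shown, and the arrays lie farthest apart for glycolysis and fermentation.

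The comparison of ptc1 with ptc2, ptc3, ptc4 and ptc5 is the one the design allows to be tested, because the wt RNA is common to all and cancels. In it ptc1 is 1 sample, so the spread comes from the differences among ptc2 to ptc5 alone, and ptc1 is assumed to vary like them. In limma, fitted to 1 mean a mutant for the 3606 genes with values on all 10 arrays, 62 genes (1.72%) passed an adjusted p of 0.05 with ptc1 above the mean of the other 4 and 61 (1.69%) with ptc1 below it. With every array as a sample and the array number as a block, which counts the 2 arrays of a mutant separately, limma called 142 higher and 253 lower. The counts depended on which arrays and mutants stood in the fit. From array 2 of each mutant alone limma called 5 higher and 1 lower, and from array 1 alone 42 and 23. Without ptc4 it called 26 higher and 16 lower, and without ptc5 36 and 23. Without ptc2 or ptc3 it called 83 and 62 higher and 71 and 56 lower. With each array centred on its median it called 100 higher and 71 lower, and with genes measured on at least 1 array a mutant 40 and 16.

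Among the higher genes HSP12 led, at 1.497 in ptc1 against -2.501 and -2.42 in ptc2 and ptc3, and -2.11 and -1.78 in ptc4 and ptc5. This difference of 3.701 ± 0.23 (SE) had an adjusted p of 4.63e-05 in limma, and both ptc1 arrays stood above all 8 others. HSP12 was thus above wt in ptc1 and below wt in each of the other mutants. SED1 was at 1.41 in ptc1 against means between -0.25 and -0.031 in the others (difference 1.56 ± 0.14 SE, limma adjusted p = 0.000416). SLT2 was at 1.21 in ptc1 against means between 0.011 and 0.11 (difference 1.14 ± 0.13 SE, limma adjusted p = 0.00171). YPS3 (difference 2.06) and PST1 (difference 1.16) had the same limma adjusted p as SLT2, and PIR3 (0.84), NCW2 (1.36), FLC2 (1.18), HSP26 (1.98) and CIT2 (1.05) had limma adjusted p-values between 0.00276 and 0.0329. The means of SED1, PST1, SLT2, NCW2 and FLC2 in the other mutants lay between -0.34 and 0.25, whereas CIT2 was above wt on all 8 of their arrays, from 0.15 to 0.75, and higher still in ptc1.

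MSC1, YOR289W and SOL4 completed the 8 higher genes with the lowest adjusted p, and all 3 were set apart mostly by low values elsewhere. SOL4, for a pentose phosphate pathway enzyme homolog, was at 0.14 in ptc1 against means between -1.23 and -0.98 in the other mutants (limma adjusted p = 0.00171). MSC1 was at 0.44 in ptc1 against means between -1.02 and -0.84, and YOR289W at 0.51 against means between -0.75 and -0.55 (limma adjusted p = 0.000741 and 0.00171). Against 1.72% of all tested genes, 10 of 21 general stress genes and 5 of 12 osmostress genes were higher in ptc1 than in the others and none lower, although only HSP26 and HSP12 of these were 1.5-fold above wt on both ptc1 arrays. Both lists hold CTT1, PGM2 and TFS1, so these counts may share genes. Of the Slt2/Rlm1 targets tested 9 of 11 were higher, and of the glucan and chitin enzymes 0 of 15, with the lowest limma adjusted p among the latter 0.12 for SCW10. RLM1 had a difference of 0.57 with a limma adjusted p of 0.108, or 0.0235 with the array number as a block, and PTP2, KDX1 and CRH1 lacked the values for the test.

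Among the lower genes PTC1 led (difference -1.92 ± 0.17 SE, limma adjusted p = 0.000416). SIT1 was at -0.50 in ptc1 against means between 0.70 and 1.03 in the others (difference -1.38 ± 0.15 SE, limma adjusted p = 0.00171). FRE7 was at -0.66 in ptc1 against means between 0.19 and 0.41 (limma adjusted p = 0.00687). These 2 belong to the iron uptake list, of which 7 of 12 tested members passed with ptc1 below the other mutants, against 1.69% of all tested genes, and none with ptc1 above them. RKI1, for ribose-phosphate isomerase, was at -0.46 in ptc1 against means between 0.35 and 0.49 (limma adjusted p = 0.00905). REE1 (difference -0.97) and YJL218W (difference -0.88) had a limma adjusted p of 0.0152, and so did DML1 and YML045W, with ptc1 means of -0.056 and -0.20. Ribosome biogenesis genes were lower in 8 of 24 tested members, or 14 with the array number as a block. Ribosomal protein genes were lower in 0 of 106, or 40 with the block. The block fit, which counts the 2 arrays of a mutant separately, called 253 of all 3606 tested genes lower. Histone genes were lower in 0 of 5 by either fit, a number of genes too small to set against these shares.

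The position of ptc1 relative to wt was therefore not the same for all called genes. Of the 62 higher genes 19 also met the 1.5-fold rule above wt and 14 had a ptc1 mean within 0.3 of wt. Of the 61 lower genes 3 met it below wt, PTC1, REE1 and YJL218W, and 43 had a ptc1 mean within 0.3 of wt. These shared counts are a description, since the size rules and the fit use the same ptc1 values. The share of all tested genes within 0.3 of wt was not counted, so those numbers are not a trait of the called genes. Of the 54 higher genes 27 had the values for the fit, and 8 of these did not pass. MLS1, TIR1, YER188W and YGR269W each had a higher value on some array of another mutant. RLM1, MCH4, ARO9 and MET3 did not. With the array number as a block their limma adjusted p-values were 0.0235, 0.0103, 0.00456 and 0.0302. In the same fit MLS1, TIR1, YER188W and YGR269W had limma adjusted p-values of 0.465, 0.085, 0.135 and 0.202. That fit counts the 2 arrays of a mutant separately, although they were read as repeats of 1 RNA.

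**Figure D5:**
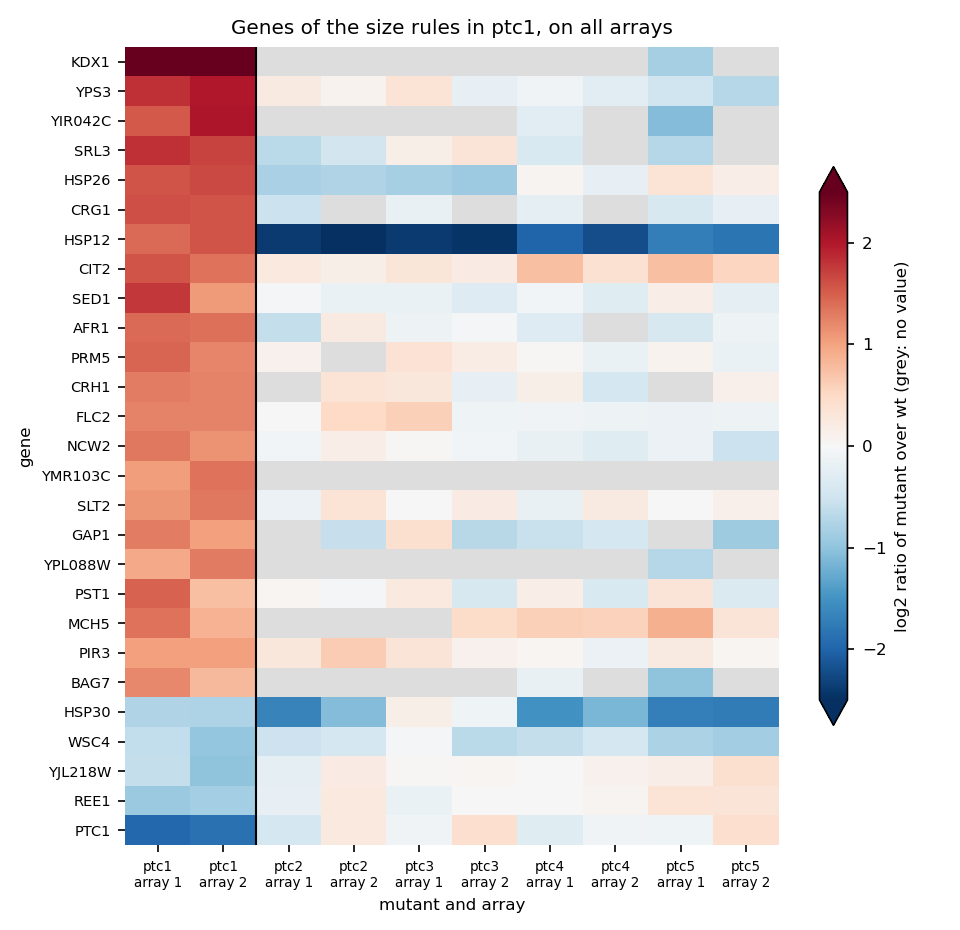
Log2 ratio of mutant over wt on all 10 arrays for the 22 genes of the 2-fold rule and the 5 lower genes of the 1.5-fold rule, ptc1 on the left, with no value in grey. Rows of pathway genes such as SLT2, SED1 and NCW2 are red in ptc1 and pale elsewhere, HSP12 is red in ptc1 and blue in the other 4 mutants, and KDX1, YIR042C, YMR103C, YPL088W and BAG7 are mostly grey outside ptc1.

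Missing values were not spread evenly. Of the 54 higher genes 9 had a value on at most 2 of the 8 arrays of the other mutants (16.7%, against 2.21% of all 4612 genes), and these were KDX1, YIR042C, YMR103C, YPL088W, BAG7, YJL107C, PCA1, MTL1 and YHL041W. The authors left out dim spots, per the labels, so a gene that was dim in wt could enter the comparison through a mutant in which it was brighter. The signal intensities were not used here, and whether these 9 genes entered in that way was not tested. Counts that include them are a description of the genes that passed the filter.

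Some positions on the chromosomes held more than 1 gene of the size rules. PIR3 and KDX1 lie 2 places apart in the gene table, SRL3 and PTR2 also 2 places apart, and RLM1 and YPL088W lie next to each other, as do YJL218W and REE1 on the lower side. Among genes with a value on 1 ptc1 array alone, the most distant from wt were SPS1, for a kinase of spore formation, with 1.0 and ARP8, for a chromatin remodelling subunit, with 0.84 on array 1, and DNF3, SHE4 and DUR3 with between 0.73 and 0.74 on array 2. The widest gaps between the arrays were those of RTS2 (0.72 and -0.71), YJR084W (-0.37 and 0.97), PDC1, ARB1 (-0.25 and 0.83), CCW12 and YHR078W (-0.43 and 0.62). RTS2 had a dye difference of 0.72 in ptc1 and 1.16 in the other mutants.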

How the data were processed

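RNA of 5 mutants and wt was compared on 10 two-colour arrays. The deposited values are log ratios, read as log2, of mutant over wt. Per the labels, 8 µg of total RNA went into each cDNA labelling, and spots under 120 µm across or under 150 intensity units in Cy3 and Cy5 were left out by the authors. For background correction, normalization, software, log base and array build, the state is: not given in the sources used here. The sign was already turned on the swapped array, since PTC1 was negative on both. Values were used as deposited, with no further scaling, and the number of arrays limits the precision. Symbols came from a RefSeq table of assembly R64, where 5662 of 6212 identifiers matched a locus tag and 550 kept the deposited name.

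The 2 ptc1 arrays were averaged, and genes were taken by size. For ptc1 against the other 4 mutants, limma 3.58.1 (R 4.3.3) was fitted to 5 per-mutant means of 3606 genes, with 3 residual degrees of freedom and Benjamini-Hochberg adjustment over all of them, and checked on simulated data. No label names separate cultures within a strain, so these p-values measure the spread between the mutants' samples. Array numbers coincide with dye orientation, and dye differences, (array 1 minus array 2)/2, of ptc1 correlated with those of ptc2 to ptc5 (r = 0.444, 0.381, 0.511 and 0.556). Arrays with the same number were therefore treated as paired in the fit with the array number as a block. The fit to per-mutant means has no such pairing. Genes named are the PTC genes, all genes of the size rules, the 8 higher and 8 lower by adjusted p, members of the pathway lists, the leading members of other lists, the neighbours of PTC1 and the genes seen on 1 array or with the widest gaps; a few further list members are given beside these and were chosen after their values were seen. The comparison, the 33 gene lists and these rules were chosen with earlier results of these data known. Lists are given by counts and medians without a test. For 1 of these lists the result is not reported here; it still enters totals over the 33 lists. Alternatives were centring, other rules on size and missing spots, robust moderation, the array number as a block, the natural logarithm, and leaving out an array number or a mutant.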

Additional observations from a re-analysis of the deposited data

Results flagged for a closer look

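The test between ptc1 and the other 4 mutants picked out 62 genes higher and 61 genes lower in ptc1. Of the genes that met the 2-fold rule against wt, those that also differed from the mean of the other mutants in limma were, with their log2 difference, HSP12 (3.701), YPS3 (2.06), HSP26 (1.98), SED1 (1.56), NCW2 (1.36), FLC2 (1.18), PST1 (1.16), SLT2 (1.14), CIT2 (1.05), PIR3 (0.84) and PTC1 (-1.92).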

How the results depend on the processing

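Of the size rules, read with natural logarithms, the 2-fold rule gave 50 higher and 5 lower genes and the 1.5-fold rule 120 and 26. With each array centred on its median, 3 genes in place of 5 met the 1.5-fold rule below wt. From 1 array alone the 2-fold rule gave between 23 and 24 higher genes and 1 to 2 lower, and the 1.5-fold rule between 88 and 112 higher and 12 to 51 lower. Other rules on size and missing spots, and removing from each array the mean dye difference of ptc2 to ptc5, which was chosen after seeing the data, kept these counts within 1.5 times. Against the other 4 mutants, limma with the array number as a replicate block called 142 higher and 253 lower genes. Centring gave 100 higher and 71 lower, genes measured on at least 1 array a mutant 40 and 16, robust moderation 61 and 63, and arrays as samples without the block 56 and 45. Leaving out 1 array number gave between 5 and 42 higher and between 1 and 23 lower. Without ptc4 the counts were 26 and 16, and without ptc5 36 and 23. The cause of these shifts was not tested. At an unadjusted p of at most 0.05 the limma fit as reported held 741 genes. Of 33 list medians, 9 had opposite signs on the 2 arrays and 1 changed sign by centring. No gene of the size rules changed sign under centring or on either array alone. The rules fixed this in advance, since both arrays had to be 1.5-fold or more from wt on the same side. Shares of promoters with motifs were not run, because promoter sequences were not used here.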
